A study of Mus musculus with 2 samples.

Results

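Natural killer (NK) cells are described here in 2 single-cell libraries that are labelled as T cells. Members were chosen by their own transcripts: a cell was counted as an NK cell when it had no UMI (unique molecular identifier, 1 captured transcript) of the CD3 genes Cd3e, Cd3d and Cd3g, of Cd8b1 or of the macrophage gene C1qa, and UMIs of at least 2 of the 5 receptor genes Ncr1, Klrb1c, Klre1, Klra8 and Klra4. This gave 66 of 17390 cells, of which 17 were untreated and 49 treated. The tumor model, titled NILER, is a mouse line grown in syngeneic hosts that descends from the Nras Q61R melanoma line NIL and was mutated further with ultraviolet light. One group was untreated and the other received trametinib, a MEK inhibitor, with BGB-283, a RAF inhibitor, and both were taken on day 5. The series title names T cell immunity against the tumor under MEK inhibition as its subject. Each group was 1 droplet library, so there is no replicate, no test was possible, and treatment cannot be told apart from library. The labels give no number, age or strain of mice, no vehicle and no account of the sort that yielded cells called T cells, and such a sort can set every share of NK cells given here.

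NK cells are innate lymphocytes that kill transformed or infected cells without a rearranged antigen receptor. Activating receptors such as NKp46 and NKG2D, often coupled to the adapters DAP12 and the Fc receptor gamma chain, are balanced against inhibitory receptors of the Ly49 and NKG2A families that bind MHC class I. Interleukin-15, read through the shared receptor chain Il2rb, keeps the cells alive, and granzymes and perforin carry out the killing.

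NK cells made up 0.183% of the untreated library (17 of 9312 cells, exact Clopper-Pearson 95% interval 0.106 to 0.292) and 0.607% of the treated library (49 of 8078 cells, 0.449 to 0.801). The share was 3.32 times as high in the treated library (1.88 to 6.15). With cells of 1 receptor gene and Tyrobp let in, the shares were 0.419% and 0.867% and the ratio was 2.07 (1.38 to 3.14). These intervals, and all others below, cover counting error only, and not the spread between cells, mice or libraries. CD3-positive cells with at least 2 of the same receptor genes went the other way, with 181 untreated cells (1.94%) and 65 treated cells (0.805%). The NK class held 241829 untreated and 441934 treated UMIs, with medians of 7773 and 6280 UMIs and of 2382 and 2262 genes per cell. At least 10000 UMIs were found in 8 of 17 untreated and 7 of 49 treated cells, so the untreated cells were the more deeply sampled ones. The libraries shared 35 cell barcodes, and 0 NK cells carried one of them.

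The receptor genes that chose the cells are a description and no finding. Klre1, a lectin-like receptor, was found in 16 of 17 untreated and 42 of 49 treated cells, and Klrb1c, the NK1.1 antigen, in 14 and 34. Ncr1, which encodes NKp46, was found in 12 and 31 cells. Klre1 is not particular to NK cells. Of CD8 T cells (CD3 and Cd8b1 present, at most 1 of the receptor genes), 18.8% untreated and 32.8% treated had it. Klrb1c was found in 0.266% and 0.306% of these CD8 T cells, and Ncr1 in 0% and 0.0408%. The Ly49 genes Klra4 (6 and 17 cells) and Klra8 (3 and 13 cells) were rarer, and reads of these near-identical genes may be split between paralogs. At the threshold, 5 untreated and 23 treated cells had exactly 2 of the receptor genes, and the adapter gene Tyrobp was found in 80% and 91.3% of them. Just outside it, 83 untreated and 49 treated cells had exactly 1, with Tyrobp in 26.5% and 42.9%. A further 5 untreated and 8 treated cells had 2 or more of the receptor genes but 1 CD3 UMI.

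A pair of cells, 1 in each library, went against the name. Neither had a UMI of Tyrobp, Nkg7 or Il2rb, and each had entered the class through Klra4 and Klre1. The untreated one held 40875 UMIs, 16.9% of all UMIs of the class, with 205 UMIs of Vim, 136 of Spp1 and 24 of Sparc. The treated one held 90279 UMIs, 20.4% of the class, with 437 UMIs of Vim, 104 of Col3a1 and 82 of Sparc. Ptprc, the pan-leukocyte gene for CD45, had 0 and 1 UMI in them. They stayed in the class because the rule admits them. Without them the class is 16 and 48 cells. Of 128 genes chosen by the naming rule, 116 had enough UMIs for a ratio. Without the 2 cells, the ratio of 14 of these moved by more than 1.5-fold, namely Ccnd1, Dut, Egr1, Fosb, Hspa1b, Ier3, Ifnar2, Maf, Pcna, Phlda1, Scd2, Sdhb, Ube2c and Xaf1. A further 3 (Cdk1, Col3a1 and Fosl1) were left without a ratio.

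Over all members, Tyrobp, the gene for DAP12, was found in 16 of 17 untreated and 46 of 49 treated cells, and Fcer1g, the Fc receptor gamma chain, in 15 and 48. Nkg7, a granule protein of killer cells, was found in 16 and 47 cells, and Il2rb in 15 and 48. Both genes were also common in CD8 T cells of the same libraries, so they do not set NK cells apart from these. Of untreated and treated CD8 T cells, 89.3% and 95.8% had Nkg7, and 63.7% and 91.99% had Il2rb. Eomes, the transcription factor of conventional NK cells, was found in 10 and 33. In CD8 T cells of the same libraries, Tyrobp was found in 10.5% (untreated) and 4.60% (treated) at median depths of 6744 and 6557 UMIs. Whether these cells made it themselves was not tested. After thinning every cell to 2000 UMIs, Tyrobp was seen in 88.2% and 81.6% of all NK cells against 4.10% and 1.91% of CD8 T cells. Eomes was then seen in 17.6% and 24.5% of NK cells and in 7.66% and 9.92% of CD8 T cells.

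Of the T cell transcripts, Trac and Cd8a were scarce, whereas the constant segments of the T cell receptor beta chain were not. Trac, the alpha constant segment, had 2 UMIs in the untreated and 3 in the treated NK cells, while 94.7% and 94.1% of CD8 T cells had it. Cd8a had 0 and 5 UMIs. Trbc1 was found in 14 of 17 untreated and 40 of 49 treated cells (82.4% and 81.6%), against 66.2% and 62.6% of CD8 T cells. Trbc2 was found in 8 and 22 NK cells (47.1% and 44.9%), against 98.1% and 94.9% of CD8 T cells. The source of these UMIs was not tested. Cd28 was found in 4 and 16 NK cells and Lat in 5 and 11. Of 5 gamma delta T cell genes measured, Tcrg-C1, Tcrg-C2 and Cd163l1 were at 0 in both libraries. Trdc had 9 and 9 UMIs in 6 and 8 cells, and Tcrg-C4 9 and 7 UMIs in 2 and 5 cells. The 5 genes summed to 74.4 and 36.2 CPM in NK cells (counts per 1000000 UMIs of the class, the level used from here on), against 59.6 and 46.3 CPM in CD8 T cells. Summed macrophage markers were at 20.7 and 49.8 CPM, with Adgre1, Fcgr1 and Ms4a7 at 0 in both. All 5 neutrophil markers were at 0 in untreated cells and summed to 1269 CPM in treated cells, where 3 of 49 cells held them. Pmel and Mitf, the melanoma genes measured, were at 0.

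Within each library, NK cells were set beside CD8 T cells (CD3 and Cd8b1 present, 4133 untreated and 4896 treated cells). Both classes were cut from the same cells by their own transcripts, so these values describe the cells and test nothing. Of 2497 genes with enough UMIs, 79 were at least 2-fold higher in NK cells in both libraries (3.16%) and 56 at least 2-fold lower (2.24%). Without the 2 cells named above these counts were 67 and 61. Ranked by the smaller of the ratios in the libraries, Car2, a carbonic anhydrase gene, was the highest above CD8 T cells. Untreated, it was at 575 CPM in NK cells and 6.89 in CD8 T cells (83.4-fold higher, 67.4 to 103), and treated at 473 and 3.95 CPM (120-fold higher, 96.4 to 149). It was found in 14 of 17 and 42 of 49 NK cells. Klrb1b, an inhibitory lectin-like receptor, was 40.4-fold higher (31.5 to 51.2) and 31.1-fold higher (25.5 to 37.7). Tyrobp itself was 22.6-fold higher (20.4 to 25.1) and 68.5-fold higher (61.7 to 75.9).

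Granzymes of the C to G cluster are serine proteases of strongly activated killer cells. Of these, Gzmc, Gzmf and Gzmd were the most abundant of the 79 genes above CD8 T cells in both libraries. Gzmf, at 4520 and 1763 CPM, came from 2 untreated and 4 treated NK cells. Gzmc was at 10172 CPM in untreated NK cells against 281 in CD8 T cells (36.2-fold higher, 34.6 to 37.8), and, after treatment, at 3234 against 32.3 CPM (99.98-fold higher, 92.5 to 108). Gzmc had UMIs in 10 of 17 and 20 of 49 NK cells, and 1 treated cell held 41.1% of its treated UMIs. Gzmd was 23.5-fold higher (21.6 to 25.5) and 35.4-fold higher (32.7 to 38.2), with 6 and 11 cells. Gzmg was 48.7-fold and 283-fold higher, but only 2 untreated and 6 treated NK cells held it. Vegfa, a growth factor for blood vessels, was 16.9-fold higher (10.9 to 25.2) and 27.1-fold higher (22.1 to 33.0), with UMIs in 8 of 17 and 32 of 49 NK cells. Khdc1a was 280-fold (116 to 718) and 28.8-fold higher (19.8 to 41.0), with 4 and 12 cells. The transcriptional cofactor gene Cited4 was 81.2-fold (41.5 to 153) and 20.5-fold higher (13.8 to 29.6), with 5 and 21 cells.

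Cald1, Tm4sf1 and Sox4, also among the 12 genes most above CD8 T cells, came from few cells. Sox4 was 22.8-fold and 13.4-fold higher, and without the 2 cells these ratios were 1.23 and 0.876. For Tm4sf1 they were 2.13 and 0.367 without them, and for Cald1 4.81 and 1.65. The genes named below CD8 T cells rested on few NK UMIs. Cd6, a T cell adhesion receptor, was 39.6-fold and 109-fold lower on 1 UMI in each library (ratios of 0.0253, 0.000640 to 0.141, and 0.00921, 0.000233 to 0.0513). Bcl11b, the transcription factor of T cell commitment, was 16.6-fold and 20.7-fold lower (2 and 4 UMIs). Pdcd1, the gene for the checkpoint receptor PD-1, had 0 UMIs in untreated NK cells (at least 17.4-fold lower against the limit of 3 UMIs over the class) and 4 in treated ones (36.7-fold lower). Acp5, Chchd10, Ifi27l2a, Tnfrsf4 and Cd8a completed the 8 genes furthest below, ranked without the receptor segments, which the naming rule leaves out. Among those Trac was 102-fold and 113-fold lower.

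**Figure D1:**
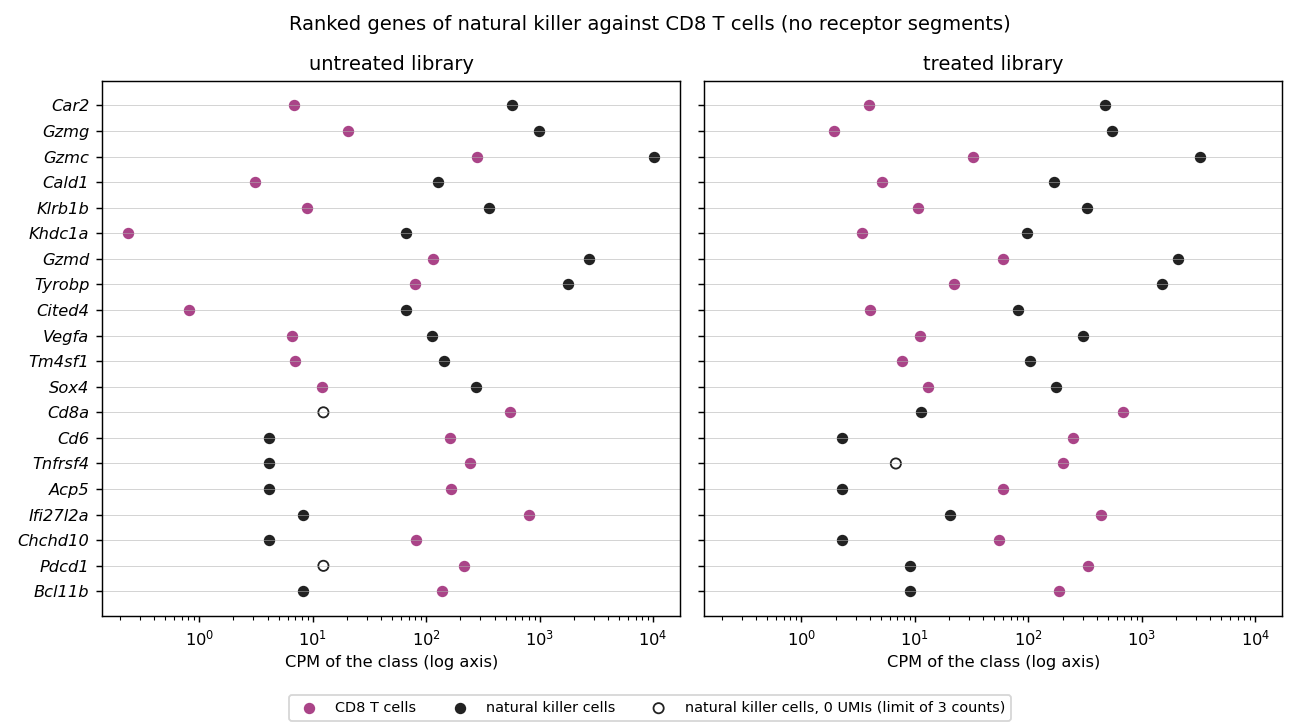
Pooled CPM (log axis) of NK cells (black) and CD8 T cells (purple) in each library for the 12 genes most above and the 8 most below by the smaller of the differences in the libraries, without receptor segments such as Trac. Open circles stand at the level of 3 UMIs for genes with 0 UMIs in NK cells; Car2 was 83.4-fold and 120-fold higher in NK cells.

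Of the gene lists, cytotoxic granule genes held the most members above CD8 T cells in both libraries, with 7 of 16 (Prf1, Gzma, Gzmc, Gzmd, Gzme, Gzmf and Gzmg) and 0 below. Fcer1g, Cd244 and Tyrobp of 13 activating receptor and adapter genes were higher, and Cd247, the CD3 zeta chain, was lower. Irf8, a transcription factor used by mature NK cells, was the 1 of 13 NK transcription factor genes above, and Ikzf2 and Tox were below. Irf8 was found in 16 of 17 untreated and 43 of 49 treated NK cells, with a median of 14.3 and 10.8 UMIs per 10000. The integrin chain Itgb1 and the chemokine receptor Ccr2 were among the trafficking genes above, while Cxcr6 and Ccr7 were below.

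Between the libraries, a gene was compared when it reached 50 CPM in 1 or both and 20 UMIs over both, which favours genes that are high in 1 of them. Of 3479 such genes, 1163 (33.4%) were at least 1.5-fold higher and 730 (21.0%) at least 1.5-fold lower in treated NK cells. So large a share past 1.5-fold is the background for every count below, and with 17 untreated cells many of these ratios rest on few UMIs. The median log2 ratio of all 3479 genes was 0.15. In the ranking by the bound of the interval nearest to 1, 6 of the 12 highest and 9 of the 12 lowest genes took over 50% of their UMIs in 1 library from 1 cell. For that reason the number of cells with a UMI is given beside each fold.

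Cytotoxic genes were mostly lower in treated NK cells. Of 17 measured members 10 were at least 1.5-fold lower and 2 higher, with a median log2 ratio of -0.65 (8 lower and 1 higher, median -0.58, without the 2 cells). When cells with only 1 receptor gene and Tyrobp were let in, the median turned to 0.71. Gzmb, the main apoptosis-inducing granzyme, ranged from 0 over a median of 4.03 to 157 UMIs per 10000 in untreated cells and from 0 over 1.00 to 29.9 in treated cells. The ranges overlapped, and 3 untreated cells stood above every treated cell. These 3 cells held 93, 103 and 122 of the 518 untreated Gzmb UMIs, so the pooled fold rests largely on them. They were alike, with 6955, 7499 and 7773 UMIs and 220, 182 and 187 UMIs of Gzmc. Whether they are separate cells was not tested. Pooled, Gzmb was at 2142 and 421 CPM, 5.09-fold lower (4.30 to 6.05), with UMIs in 12 of 17 and 25 of 49 cells.

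Prf1, the gene for the pore-forming protein perforin, had a median of 4.76 and a highest value of 38.6 UMIs per 10000 in untreated cells, against 0.998 and 66.3 in treated cells. One treated cell held 40.4% of the treated Prf1 UMIs and stood above all other cells of both libraries. Pooled Prf1 came to 1286 and 308 CPM, 4.18-fold lower (3.41 to 5.15), with 11 and 26 cells holding it. Gzmc ranged from 0 over 13.2 to 316 UMIs per 10000 in untreated cells and from 0 over 0 to 308 in treated cells. It was 3.15-fold lower (2.95 to 3.36), with UMIs in 10 of 17 and 20 of 49 cells. In C1qa-positive cells without CD3, which should lack these genes, Gzmc was found in 2.14% and 2.78%, Gzmb in 3.21% and 2.78% and Prf1 in 0.535% and 1.39% of cells, at median depths of 10772 and 9389 UMIs. After thinning to 2000 UMIs, Gzmb was seen in 64.7% and 34.7%, Prf1 in 58.8% and 26.5% and Gzmc in 52.9% and 34.7% of NK cells.

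Other members of the list lay on the same side. Serpinb6b, a serpin of killer cells, was at 893 and 251 CPM (ratio 0.222 to 0.355 by its interval, 15 and 34 cells), and Cst7, the protease inhibitor cystatin F, at 476 and 172 CPM (0.267 to 0.487, 13 and 27 cells). Nkg7 was at 1394 and 928 CPM and Srgn, the granule proteoglycan serglycin, at 1902 and 1215 CPM. Gzma, a granzyme of resting mature NK cells, differed from these and was 4.59-fold higher (3.35 to 6.42), at 182 and 835 CPM. It was found in 4 of 17 untreated and 18 of 49 treated cells, and 1 treated cell held 63.4% of the treated UMIs. Without the cell with most Gzma in each library the log2 ratio was 0.79 in place of 2.20. Lamp1 was 1.70-fold higher (1.099 to 2.70), but 49.4% of its treated UMIs came from 1 cell and its log2 ratio was 0.40 without the 2 cells and 0.11 without the cell with most Lamp1 in each library.

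**Figure D2:**
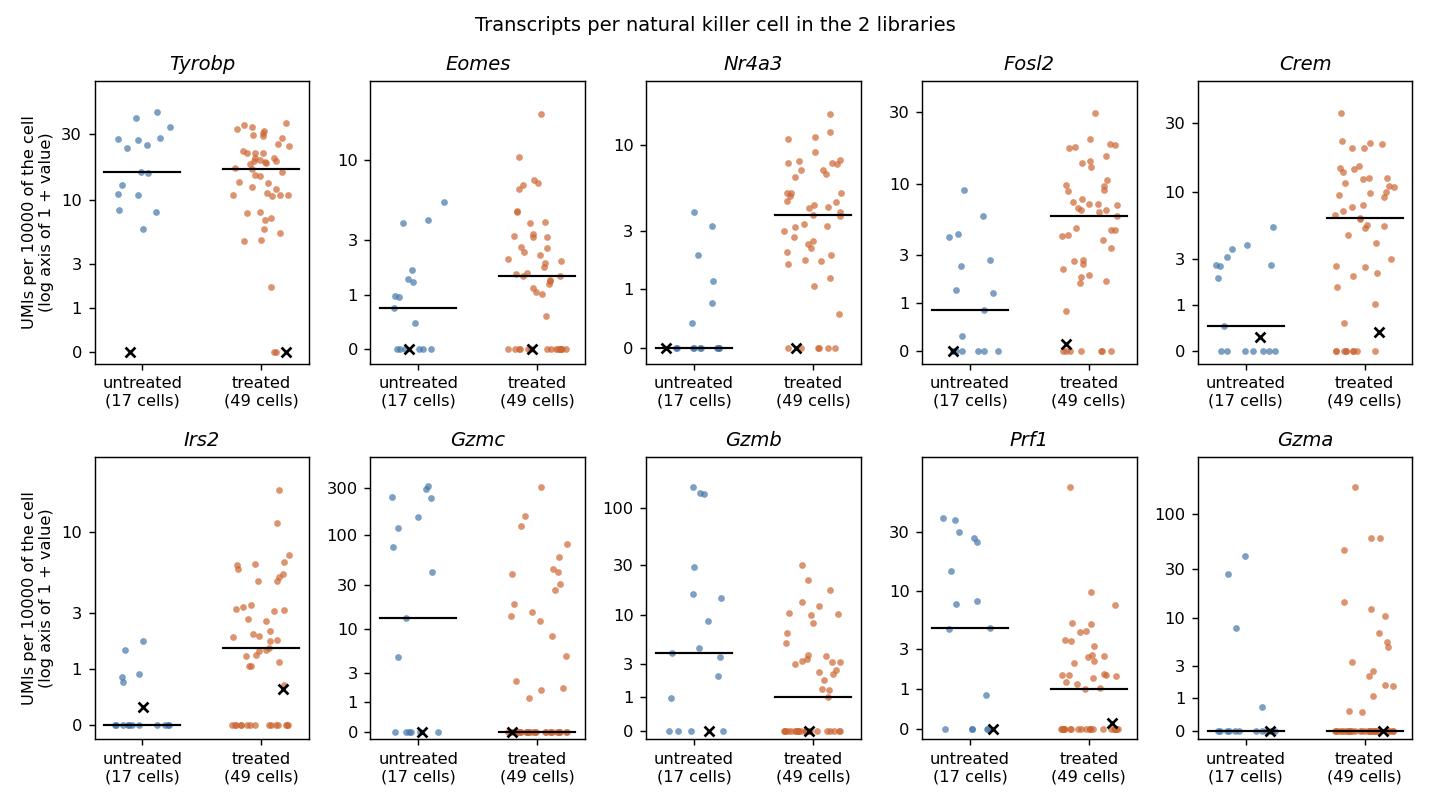
UMIs per 10000 UMIs (log axis of 1 plus the value) of 10 genes in each of the 17 untreated and 49 treated NK cells, with the median as a line. Crosses mark the 2 cells without Tyrobp, Nkg7 and Il2rb; Nr4a3, Fosl2, Crem and Irs2 had UMIs in more of the treated cells, and Gzmb and Prf1 had lower medians there.

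Granzymes C to G marked a state held by some of the cells in both libraries. At least 1 UMI of them was found in 10 of 17 untreated cells (58.8%, interval 32.9 to 81.6) and 21 of 49 treated ones (42.9%, interval 28.8 to 57.8). These intervals overlap. Leaving out the 2 cells without lymphocyte transcripts, the cells with these granzymes were deeper, with medians of 11000.5 and 7084 UMIs against 5845 and 5739 in the others. Of the 10 untreated cells 9 also had Gzmb and 9 Prf1, and of the 21 treated cells 17 and 16. Within treated cells, Klrg1 and Ccl5 did not occur together. Klrg1, a receptor of mature NK cells, was found in 11 cells, of which 0 had Ccl5 and 0 had Xcl1, chemokines of lymphocytes, while 9 had granzymes C to G and 10 had Eomes. The 24 treated cells with Ccl5 held Klrc1 in 14 cases and granzymes C to G in 7. The median depth was 10018 UMIs in treated cells with Klrg1 and 5493.5 in those with Ccl5, so the cells with Ccl5 also had fewer UMIs. In the untreated library 4 of the 8 cells with Klrg1 had Ccl5. Of the 18 treated cells with Gzma, 16 had a Ly49 gene and 16 had Eomes, against 30 and 33 of all 49 treated cells, and some Ly49 genes were used to choose the cells. Of the 4 untreated cells with Gzma, 2 had a Ly49 gene and 4 had Eomes, against 10 and 10 of 17.

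Activating receptors and adapters lay lower as a list, with 6 of 15 members at least 1.5-fold lower, 1 higher and a median log2 ratio of -0.36. Over the alternatives that were run, the median ranged from -0.51 to 1.06. The core of the list differed little. Tyrobp was at 1786 and 1514 CPM, Fcer1g at 1075 and 1034 CPM, and Klrk1, the gene for NKG2D, at 364 and 285 CPM (1.28-fold lower, 0.961 to 1.69). Klrd1, the CD94 partner of NKG2 receptors, was at 856 and 871 CPM (ratio 1.02, 0.857 to 1.21). Cd226, the activating receptor DNAM-1, was 4.70-fold lower (1.87 to 13.3) on 18 and 7 UMIs, and its log2 ratio of -2.23 was -1.52 without the cell with most of it in each library. Sh2d2a, an adapter of lymphocyte signalling, was at 538 and 244 CPM with UMIs in 15 of 17 and 41 of 49 cells. Hcst, the gene for the NKG2D adapter DAP10, was the 1 member higher, at 223 and 410 CPM (1.83-fold, 1.35 to 2.53), in 14 and 44 cells.

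Inhibitory receptors went both ways, with 2 of 9 higher, 4 lower and a median log2 ratio of -0.13 (-0.62 to 1.14 over the alternatives). Klrg1 was 3.91-fold lower (2.60 to 5.98), at 318 and 81.5 CPM, with UMIs in 8 of 17 and 11 of 49 cells. Without the cell with most Klrg1 UMIs in each library its log2 ratio was -1.34 in place of -1.97. Klrc1, the gene for NKG2A, was 2.16-fold lower (1.45 to 3.23), at 240 and 111 CPM, in 11 and 20 cells, and its log2 ratio turned from -1.11 to 0.43 when cells with 1 receptor gene and Tyrobp were let in. The Ly49 gene Klra7 was 2.45-fold higher (1.48 to 4.26) on 19 and 85 UMIs in 4 and 15 cells, with 73.7% of the untreated UMIs in 1 cell and paralogs able to share its reads. Of the checkpoint receptors, Tigit had 0 UMIs in both libraries, Pdcd1 0 and 4, and Lag3 7 and 6. Ctla4 had 45 and 40 UMIs in 6 and 18 cells, at 186 and 90.5 CPM (ratio 0.310 to 0.762 by its interval), and Cd96 20 and 23 UMIs in 11 and 15 cells.

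Several genes that mark the stages of NK maturation and tissue residence gave few UMIs. Itgam, the CD11b gene of mature cells, had 0 and 6 UMIs, Cd27 of immature cells 12 and 19, Itga1 of tissue-resident type 1 innate lymphocytes 1 and 6, and Cxcr6 11 and 6. Thy1, Irf8 and Klrg1 of the same lists were better covered, with 122 and 241, 359 and 432, and 77 and 36 UMIs. The egress receptor gene S1pr5 had no UMI in NK cells and none in the whole of 1 library, so it was not measured. Of 10 immature NK genes 5 were at least 1.5-fold higher and 2 lower, with a median log2 ratio of 0.70, or 0.36 without the 2 cells. Over the alternatives that were run, this median ranged from 0.016 to 1.76. Of 8 mature circulating NK genes 2 were higher and 3 lower, with a median of 0.16. Of 6 genes of tissue residence 2 were higher and 2 lower, with a median of 0.08. Emb, an adhesion protein that accompanies the monocarboxylate transporters, had a median of 4.18 and a highest value of 22.0 UMIs per 10000 in untreated cells, against 17.8 and 61.3 in treated cells. The treated median lay near the upper end of the untreated range. Emb was at 467 and 1464 CPM, 3.13-fold higher (2.56 to 3.86), in 13 of 17 and 46 of 49 cells.

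Ctla2a, a cathepsin inhibitor of lymphocytes, was at 724 and 1541 CPM (ratio 1.80 to 2.53 by its interval), in 14 and 47 cells. Tcf7, the gene for the transcription factor TCF-1 of immature NK and memory T cells, was found in 6 of 17 and 30 of 49 cells. It was 2.60-fold higher (1.38 to 5.32) on 12 and 57 UMIs. Kit (11 and 49 UMIs) and Cd7 (26 and 105 UMIs) were higher as well. Lower were Ltb, the lymphotoxin beta gene (2.36-fold, 1.77 to 3.18), whose log2 ratio turned from -1.24 to 0.14 when cells with 1 receptor gene and Tyrobp were let in, and Cd69, an early activation antigen (1.76-fold, 0.987 to 3.13), whose log2 ratio of -0.82 turned to 0.06 in thinned cells.

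Transcription factors of the NK program were split, with 5 of 13 higher, 4 lower and a median log2 ratio of 0.35 (-0.32 to 0.94 over the alternatives). Eomes was at 95.1 and 179 CPM (1.88-fold higher, 1.17 to 3.13) in 10 and 33 cells, and Tbx21, the gene for T-bet, at 74.4 and 95.04 CPM (ratio 1.28, 0.719 to 2.36) in 10 and 25 cells. Ets1, required for NK development, was at 136 and 305 CPM in 15 and 40 cells. Foxo1, a restraint on NK maturation, was 3.44-fold higher (1.54 to 9.05) and Gata3 2.57-fold higher (1.28 to 5.71). Id2, a helix-loop-helix inhibitor that NK cells need, was lower. Its median was 8.35 UMIs per 10000 in untreated and 2.69 in treated cells, and its highest values 50.7 and 36.2. It was at 1150 and 448 CPM, 2.57-fold lower (2.13 to 3.09), with UMIs in 15 of 17 and 34 of 49 cells.

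Cytokine receptor and feedback genes with enough UMIs were higher or near equal in treated cells. Of 14 such genes 7 were at least 1.5-fold higher and 0 lower, with a median log2 ratio of 0.58. The median stayed above 0 under every alternative that was run (0.43 to 1.15). Il2rb had a median of 6.04 UMIs per 10000 in untreated and 14.5 in treated cells, with highest values of 15.8 and 31.3. Nearly all cells held it and the ranges overlapped. It was at 595 and 1186 CPM, 1.99-fold higher (1.65 to 2.41). Il18r1, a chain of the interleukin-18 receptor, was 4.74-fold higher (2.04 to 13.5) on 6 and 52 UMIs in 5 and 25 cells. Il2rg, the common gamma chain, was at 244 and 188 CPM (1.30-fold lower, 0.914 to 1.84). Il2ra, under the minimum of UMIs, had 9 and 4 UMIs (log2 ratio -2.04, ratio 0.0547 to 0.871 by its interval). Its log2 ratio was -0.15 without the cell with most of it in each library.

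Of the cytokines themselves, Ifng had 26 UMIs in 6 untreated cells and 5 UMIs in 2 treated cells. It was 9.50-fold lower (3.59 to 31.7), and without the cell with most of it in each library the log2 ratio was -2.001 in place of -3.25. Ccl5 was at 1212 and 686 CPM, with a ratio of 0.566 (0.480 to 0.667), although 8 of 17 and 24 of 49 cells held it. Without the cell with most Ccl5 in each library its log2 ratio was -0.28 in place of -0.82, and with up to 1 CD3 UMI allowed it was 0.19. For Xcl1, 190 and 134 CPM gave a ratio of 0.702 (0.469 to 1.06), and its log2 ratio turned from -0.51 to 0.40 without the cell with most of it in each library. Ccl4 had 0 UMIs in untreated cells and 40 in treated ones, of which 85.0% came from 1 cell. Tgfb1 was at 215 and 421 CPM, 1.96-fold higher (1.43 to 2.72), in 16 and 41 cells.

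Trafficking and adhesion genes had 6 of 13 members higher and 2 lower. Cxcr4, the receptor for Cxcl12, was 4.20-fold higher (2.56 to 7.29), at 74.4 and 312 CPM, with UMIs in 8 of 17 and 36 of 49 cells. Cd44, the hyaluronan receptor, was 3.98-fold higher (2.11 to 8.29) in 6 and 27 cells. Itgb1 was at 265 and 475 CPM in 13 and 46 cells. Rgs1, a regulator of G protein signalling that chemokine receptors use, was 3.99-fold lower (3.35 to 4.75), at 1741 and 437 CPM. Its median was 11.8 UMIs per 10000 in untreated and 3.97 in treated cells, and 15 of 17 and 40 of 49 cells held it. One untreated cell held 46.6% of the untreated UMIs, and without the cell with most Rgs1 in each library the log2 ratio was -1.37 in place of -1.995.

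Immediate early genes, which are switched on quickly by receptor or stress signals, were mostly higher in treated NK cells. Of 16 members 9 were higher and 2 lower, with a median log2 ratio of 0.74 (10 and 0, median 0.96, without the 2 cells). Nr4a3, an orphan nuclear receptor induced by activating signals, had a median of 0 and a highest value of 3.97 UMIs per 10000 in untreated cells, and 3.79 and 14.8 in treated cells. The treated median was close to the highest untreated cell. Nr4a3 was found in 6 of 17 (35.3%) and 42 of 49 cells (85.7%), and in 0% and 46.9% after thinning. It was at 62.0 and 328 CPM, 5.29-fold higher (3.10 to 9.70).

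Fosl2, an AP-1 family member, was 4.16-fold higher (2.83 to 6.31) at 124 and 516 CPM, with UMIs in 10 of 17 and 42 of 49 cells. Crem, which encodes repressors and activators of genes driven by cyclic AMP, was 3.79-fold higher (2.70 to 5.45) at 161 and 611 CPM, in 10 and 40 cells. Nr4a1 (82.7 and 181 CPM) and Nr4a2 (232 and 455 CPM) were higher too, whereas Jun and Jund were each 1.55-fold lower. Without the cell with most Jun in each library its log2 ratio turned from -0.63 to 0.36. In C1qa-positive cells without CD3, Nr4a3 was found in 21.9% and 43.1% of cells, untreated and treated, Fosl2 in 38.0% and 70.8% and Crem in 32.1% and 63.9%. These genes were therefore also more often found in another class of the treated library, and the part of RNA free in the droplets in their values was not tested.

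Genes known as outputs of the ERK pathway, which the drugs target, went both ways over all members of the class. Of 19 members 8 could be compared, 3 higher and 2 lower, with a median log2 ratio of 0.40 (-1.45 to 0.81 over the alternatives). Without the 2 cells 5 could be compared, 3 higher and 0 lower, with a median of 0.77. Dusp5, a nuclear ERK phosphatase, had 43 and 126 UMIs in 14 and 42 cells, at 178 and 285 CPM (ratio 1.13 to 2.32 by its interval). Dusp2, another phosphatase, had 168 and 337 UMIs (0.909 to 1.33), and Spry2, a feedback inhibitor, 34 and 87 (0.932 to 2.15). Dusp6, the ERK phosphatase, had 9 and 11 UMIs (ratio 0.669, 0.252 to 1.83). Myc, the growth regulator, had 11 and 7 UMIs (2.87-fold lower, 1.02 to 8.74). Phlda1 was 2.63-fold higher (1.49 to 4.93) with 80.0% of its untreated UMIs in 1 cell, it was found in 4 of 17 and 28 of 49 cells, and its log2 ratio turned from 1.39 to -0.98 when cells with 1 receptor gene and Tyrobp were let in. Egr1 was at 108 and 134 CPM, and without the 2 cells at 34.8 and 139 CPM. Fosl1 and Ccnd1 were the 2 lower genes. Of their untreated UMIs 100% and 87.1% came from 1 cell, the untreated cell without Tyrobp, Nkg7 and Il2rb.

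**Figure D3:**
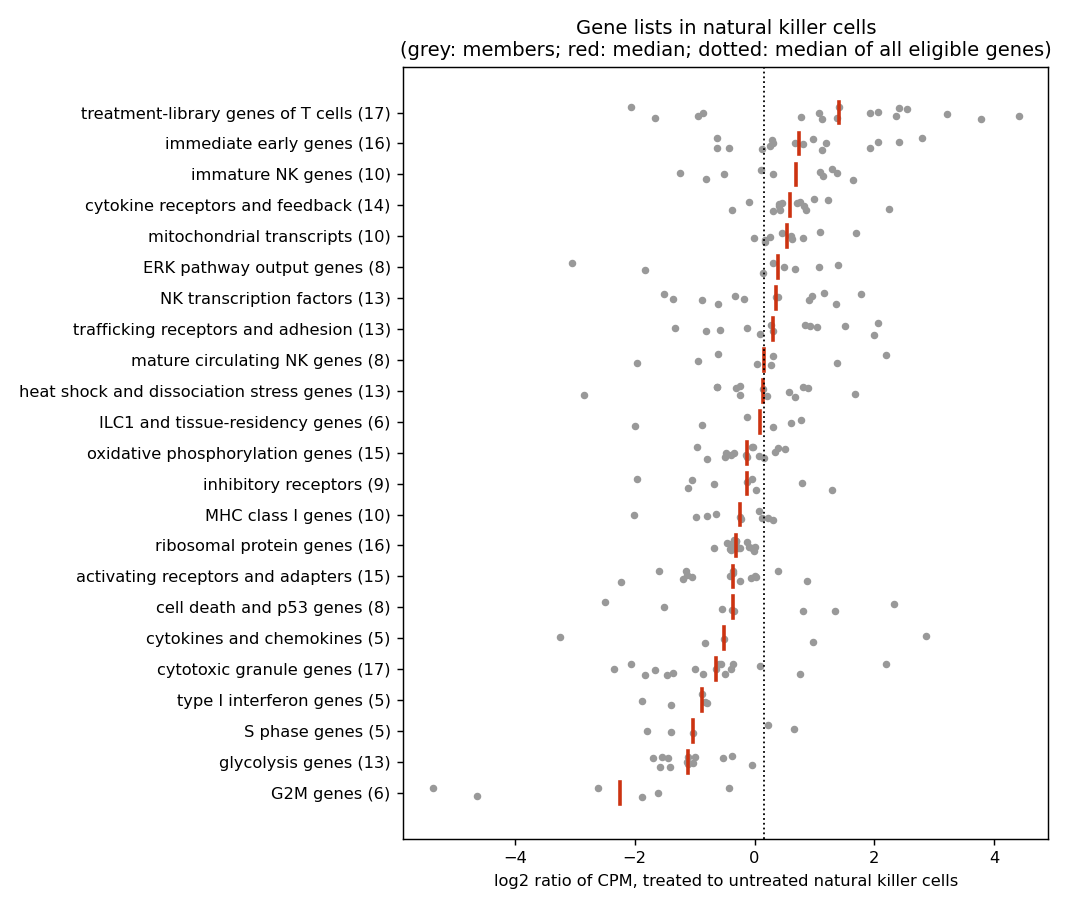
Log2 ratio of CPM, treated to untreated NK cells, for the eligible members of each gene list (grey), with the list median (red) and the median of all eligible genes (dotted); lists with fewer than 5 eligible genes are left out. Treatment-library genes of T cells, a list taken from these same libraries that holds genes of both directions, had the highest median (1.41). G2M genes had the lowest (-2.24). Their median was -0.65 over 2 genes without the 2 cells lacking Tyrobp, Nkg7 and Il2rb, and 0.38 with 3 of 5 receptor genes.

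A list of 24 genes was taken from the T cells of these same libraries, so it is not independent of these samples, and it holds genes high and genes low in treated T cells. Its median therefore describes no single direction. Of 17 members measured in NK cells, 13 were higher and 4 lower, with a median log2 ratio of 1.41. Tcf7, a member, lay on opposite sides in NK and CD8 T cells (given below). Irs2, an insulin receptor substrate controlled by FoxO factors, was 5.81-fold higher (2.82 to 13.9) on 8 and 85 UMIs in 6 of 17 and 34 of 49 cells. Hexim1, an inhibitor of transcription elongation, was 9.30-fold higher (3.47 to 35.1) on 4 and 68 UMIs in 4 and 35 cells. Zc3hav1l had 1 UMI in untreated and 25 in treated cells (ratio 13.7, 2.24 to 562), the latter in 19 cells. Rhoq was at 41.4 and 213 CPM with UMIs in 7 and 32 cells. Klf2, a regulator of lymphocyte recirculation, had 19 and 18 UMIs (1.93-fold lower, 0.958 to 3.90).

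Of the 12 highest genes of the whole ranking, several were spread over many cells. Ski, a repressor of TGF-beta signalling, had 2 UMIs in 2 untreated cells and 81 in 38 treated cells (ratio 22.2, 5.94 to 186). Abca1, a cholesterol exporter, had 0 and 40 UMIs, the latter in 23 cells (at least 7.30-fold higher). Amd2, a gene of polyamine synthesis, had 0 and 42 UMIs, the latter in 25 cells (at least 7.66-fold higher). Tnfsf11, the gene for RANKL, had 0 and 62 UMIs in 12 treated cells (at least 11.3-fold higher). Lars2 had 4 and 155 UMIs, the latter in 22 cells with 44.5% in 1 of them. Scd2, a fatty acid desaturase, had 2 and 78 UMIs, the latter in 24 cells. Without the 2 cells lacking Tyrobp, Nkg7 and Il2rb, Scd2 had 0 and 47 UMIs, the latter in 23 cells. S100a8 and S100a9, neutrophil genes, were at 0 in untreated cells, and 1 cell held 376 of their 522 treated UMIs. Ifitm1, Ccl4, Col3a1 and Maf likewise drew over 50% of their treated UMIs from 1 cell.

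Most of the 12 lowest genes of the ranking drew on single untreated cells. One untreated cell held 491 of the 592 UMIs of the class II MHC genes H2-Aa, H2-Ab1, H2-Eb1 and Cd74, against 72 UMIs in all treated cells. Gadd45g took 97.2% of its untreated UMIs from 1 cell, Ube2c 88.2%, Cdk1 92.6% and Traf1 56.8%. For Ube2c and Cdk1 this was the untreated cell of the 2 that lack Tyrobp, Nkg7 and Il2rb. Traf1 and Zbtb32 were found in 14 and 8 untreated and in 16 and 2 treated cells, and Ccdc184 in 6 and 4. Mki67 or Top2a was found in 4 of 17 untreated cells (23.5%, interval 6.81 to 49.9) and 7 of 49 treated ones (14.3%, interval 5.94 to 27.2), and these intervals overlap. The untreated cell without Tyrobp, Nkg7 and Il2rb was 1 of these 4 and held all 4 untreated UMIs of Mki67. The G2M list of genes of dividing cells had a median log2 ratio of -2.24 over 6 genes, and of -0.65 over 2 genes without the 2 cells.

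Glycolysis genes were lower as a group. Of 13 members 10 were at least 1.5-fold lower and 0 higher, with a median log2 ratio of -1.12 that lay between -1.78 and -1.07 under every alternative that was run. Aldoa, an aldolase, had a median of 7.43 and a highest value of 34.6 UMIs per 10000 in untreated cells, and 3.31 and 16.8 in treated cells. It was found in 17 of 17 and 42 of 49 cells and was 2.98-fold lower (2.47 to 3.59). Pgk1, a kinase of the payoff phase, was 3.22-fold lower (2.48 to 4.20) in 16 and 27 cells. Gapdh was at 3097 and 1412 CPM, Pkm at 1224 and 448 CPM and Ldha at 955 and 466 CPM. The first enzyme, Hk1 (13 and 23 UMIs), and the glucose transporter Slc2a1 (25 and 35 UMIs) gave ratios of 0.968 (0.470 to 2.08) and 0.766 (0.446 to 1.34).

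Type I interferon genes lay on the same side, with 5 of 5 measured members lower and a median log2 ratio of -0.87 (4 of 4, median -1.02, without the 2 cells). Isg15 was 3.65-fold lower (1.76 to 8.02) on 24 and 12 UMIs, with a log2 ratio of -1.08 in place of -1.87 without the cell with most of it in each library. Genes of the antigen presentation route split. B2m was at 2365 and 2776 CPM and H2-K1 at 2465 and 3052 CPM, each in all cells but close between the libraries. The peptide transporter Tap1 was 4.02-fold lower (2.46 to 6.73), in 15 of 17 and 13 of 49 cells, and the immunoproteasome gene Psmb8 1.96-fold lower (1.58 to 2.44), in 17 and 40 cells.

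Survival genes of the Bcl2 family differed from one another. Bcl2l11, the gene for the death-promoting protein BIM, was 5.003-fold higher (2.88 to 9.41) on 14 and 128 UMIs, in 10 of 17 and 36 of 49 cells. Bcl2, its antagonist, was 2.52-fold higher (1.60 to 4.15) in 9 and 38 cells. Bcl2a1b was 5.63-fold lower (3.54 to 9.23), at 318 and 56.6 CPM, in 10 and 13 cells. Among chaperones Dnaja1 was 3.18-fold higher (2.43 to 4.21) in 15 and 47 cells, whereas 98.6% of the untreated Hspa1b UMIs came from 1 of the 2 cells. Sterol genes gave 3 members with enough UMIs, and Scd2 (2 and 78 UMIs, or 0 and 47 without the 2 cells) was higher. Mitochondrial transcripts had 5 of 10 members higher, among them mt-Nd5 at 170 and 545 CPM, while the median mitochondrial share per cell was 3.82% and 3.93%. Ribosomal protein genes (0 of 16 higher, 1 lower, median -0.31) and oxidative phosphorylation genes (0 of 15 higher, 2 lower, median -0.12) lay close between the libraries.

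The same ratios were computed in CD3-positive cells with NK receptors and in CD8 T cells. All 3 classes come from the same 2 libraries, so their values are set side by side and are not independent. In these classes 31.3% and 32.4% of genes were at least 1.5-fold higher, and 17.0% and 11.6% at least 1.5-fold lower, the background for the values below. Nr4a3 had a log2 ratio of 2.40 in NK cells, 3.51 in CD3-positive cells with NK receptors and 3.71 in CD8 T cells. Fosl2 was at 2.06, 2.44 and 2.80, Crem at 1.92, 3.11 and 3.04, and Irs2 at 2.54, 2.73 and 3.21. Prf1 was at -2.06, -1.07 and -1.60, and Gzmc at -1.65, -0.30 and -3.12. These genes lay on the same side in each class. All of them belong to the list taken from the T cells of these same libraries. Their side in T cells was thus known when they were chosen, and the likeness between classes tests nothing.

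Other genes lay on opposite sides in NK and CD8 T cells. Tcf7 was at a log2 ratio of 1.38 in NK cells, -0.30 in CD3-positive cells with NK receptors and -1.91 in CD8 T cells. Bcl2 was at 1.33, -0.36 and -1.46, Gzma at 2.20, 0.83 and -1.13, and Klra7 at 1.29, -0.66 and -0.84. In the other direction, Klrc1 was at -1.11, 0.56 and 1.33, Rgs1 at -1.995, 0.69 and 1.00, Ccl5 at -0.82, 0.53 and 1.05, and Ifng at -3.25, -0.96 and 0.72. Differences between the classes were not tested, since there was 1 library per group. Klf2 was 1.93-fold lower in NK cells but at a log2 ratio of -3.24 in CD8 T cells. The glycolysis list had medians of -1.12, -0.90 and -0.80 in the 3 classes, and the immature NK list 0.70, -0.30 and -1.32.

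**Figure D4:**
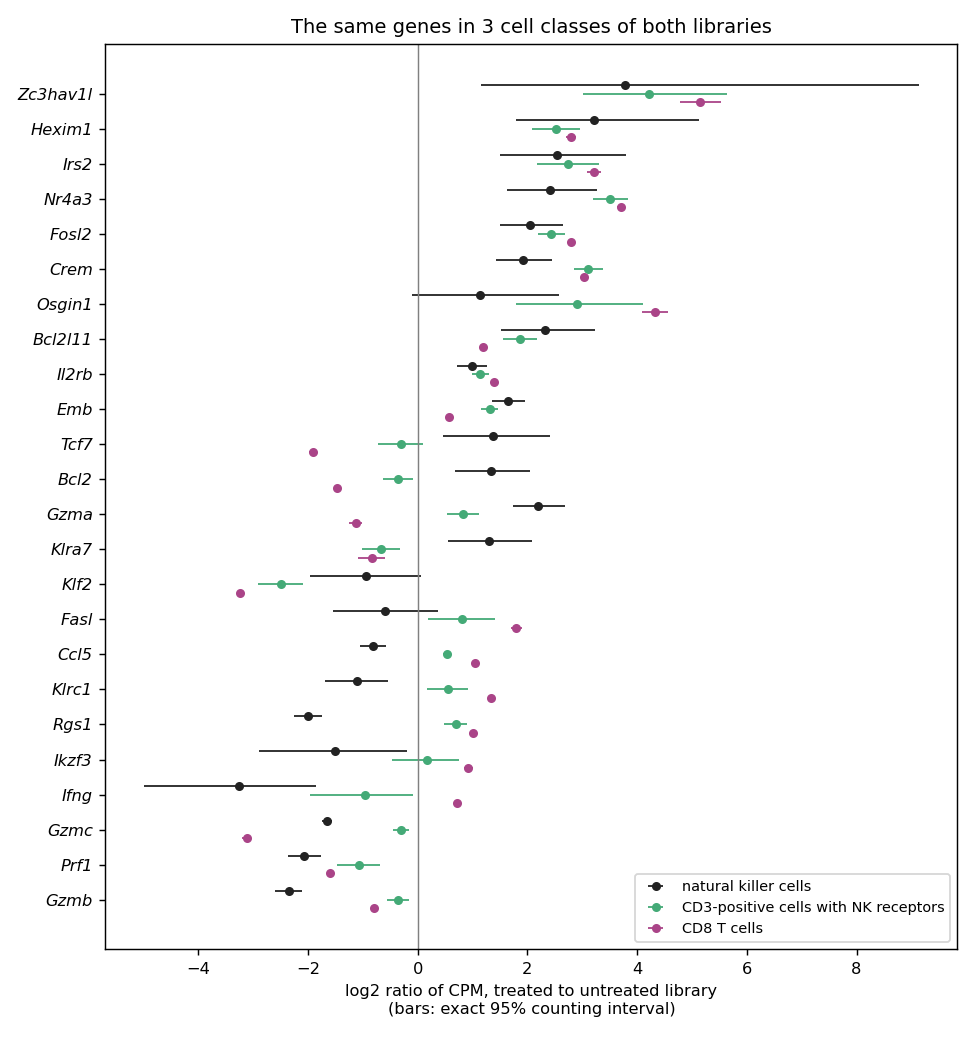
Log2 ratio of CPM, treated to untreated, with exact 95% counting intervals, for 24 genes in NK cells (black), CD3-positive cells with NK receptors (green) and CD8 T cells (purple). Nr4a3, Fosl2, Crem and Irs2, members of the list taken from T cells of these same libraries, lay above 0 in each class. Tcf7, Bcl2, Gzma and Klra7 lay above 0 in NK cells and below 0 in CD8 T cells.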

How the data were processed

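Transcripts of single cells were measured in 2 droplet libraries (3' chemistry, per the labels). Cell Ranger and Seurat made the table, per the submitters' processing notes, without versions. Those notes name the human build GRCh38, whereas all symbols are those of mouse genes, and coordinates were left out. Values deposited by the authors, for 15121 genes in 17390 cells, are natural logs, ln(1 + x), where x is a gene's UMIs scaled to 10000 per cell. UMI counts were recovered from the deposited values, of which 38204229 of 38204229 came out whole within 0.01. Libraries were told apart by the cell name suffix, whose number matches the sample number in the labels and whose 9312 and 8078 cells match the cell numbers there. The libraries held 95349992 and 58318786 UMIs, with medians of 6155 and 5987.5 per cell. A gene at 0 in a whole library (1123 genes) was treated as not measured.

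NK cells, and all lists, were chosen with earlier results of these data known. UMIs were summed over the cells of a class and given as CPM. Ratios have exact conditional binomial 95% intervals, and a gene at 0 was set to 3 UMIs. No test was made, since there was 1 library per group. Genes were named as the 12 highest and 12 lowest by the interval bound nearest to 1, the 2 highest and 2 lowest of each of 25 lists, 40 genes named always, and the 12 above and 8 below CD8 T cells by the smaller of the differences in the libraries. Rankings left out the genes of the membership rule, receptor segments, ribosomal, mitochondrial, predicted and sex-linked genes. Named outside this rule, after their values were seen, were further members of the gene lists and genes of the 2 cells without Tyrobp, Nkg7 and Il2rb. A few genes that the rule chose are not reported here. Scrublet with its automatic threshold found doublets among 0.0430% and 0% of cells, too few to be believed, so none was removed. The 2 NK cells among the highest 5% of scores were left out as an alternative. Shares of cells were also given after thinning to 2000 UMIs, which all 66 NK cells reached. The ratio step was tested on simulated counts. Work was done in Python 3.11.15 with scanpy 1.11.5, pandas 2.3.3, scipy 1.17.1, numpy 2.4.6 and matplotlib 3.10.9.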

Additional observations from a re-analysis of the deposited data

Results flagged for a closer look

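For 13 genes the log2 ratio of treated to untreated CPM was at least 1.5-fold up in NK cells and at least 1.5-fold down in CD8 T cells of the same libraries, or the reverse. With 1 library per group this difference was not tested. Higher in treated NK cells and lower in treated CD8 T cells were Ifitm1 (4.78 and -0.88), Ccl4 (2.87 and -0.85), Gzma (2.20 and -1.13), Tcf7 (1.38 and -1.91), Bcl2 (1.33 and -1.46) and Klra7 (1.29 and -0.84). Lower in treated NK cells and higher in treated CD8 T cells were Ifng (-3.25 and 0.72), Rgs1 (-1.995 and 1.00), Ikzf3 (-1.51 and 0.92), Bcl2l1 (-1.51 and 1.26), Klrc1 (-1.11 and 1.33), Ikzf2 (-0.87 and 0.66) and Ccl5 (-0.82 and 1.05). For Ifitm1 and Ccl4 the untreated NK cells had 0 UMIs, so the NK values are lower bounds against 3 UMIs. Without the cell with most of the gene in each library, the NK value was 0.02 for Bcl2l1 and 0.15 for Ccl4. In treated NK cells 1 cell held 77.5% of the Ifitm1, 85.0% of the Ccl4 and 63.4% of the Gzma UMIs, and in untreated NK cells 1 cell held 71.4% of the Bcl2l1 and 65.4% of the Ifng UMIs. Tcf7 (6 untreated and 30 treated cells), Bcl2 (9 and 38), Rgs1 (15 and 40) and Klrc1 (11 and 20) were spread over more cells. When cells with 1 receptor gene and Tyrobp were let in, the NK value turned to 0.43 for Klrc1, 0.21 for Ikzf2 and 0.86 for Ccl5, and in thinned cells it was 0.058 for Ikzf2.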

How the results depend on the processing

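With 1 library per group no replicate could be left out, and counts of UMIs limit precision. No paired analysis was possible because each group is 1 library and no test was made. Over all alternatives, 39 values of single genes and 4 list medians that were past 1.5-fold turned sign. A further 288 and 47 moved otherwise, 1354 and 319 stayed close, and of the shares and counts of genes 9 values moved and 39 stayed close. The share of NK cells moved to 0.419% untreated and 0.867% treated with at least 1 receptor gene and Tyrobp, and to 0.322% treated with 3 of 5 receptor genes. Counts of genes higher and lower were 299 and 169 in thinned cells, 173 and 162 at a minimum of 200 CPM, and 760 and 352 at 2-fold. With 1 receptor gene and Tyrobp, log2 values turned to 0.71 for the cytotoxic list, 0.14 for death ligands and for Ltb, -0.044 for Lamp1, 0.79 for Fasl, 0.43 for Klrc1, 0.47 for Cd69, 0.21 for Ikzf2, 0.86 for Ccl5, 0.15 for Il2ra, -1.53 for Ier3, -0.98 for Phlda1, -0.64 for Hsph1 and 1.14 for Cd96. With 3 of 5 receptor genes they turned to 0.17 for S phase genes, 0.38 for G2M genes, 2.89 for Hspa1b and 0.037 for Zeb2. With at most 1 CD3 UMI they turned to -0.042 for Lamp1, 0.18 for Fasl, 0.19 for Ccl5, -1.19 for Ier3 and -0.13 for Pcna. Thinned, they turned to -0.39 for Lamp1, -0.21 for Klra9, 0.058 for Cd69 and Ikzf2 and -0.30 for Ifnar2. Without cycling cells they turned to 0.048 for Gadd45g, 0.016 for Cd69, 0.49 for Ccnd1 and 2.71 for Hspa1b. As the mean over cells Lamp1 was at -0.067. Without the 2 cells lacking Nkg7 and Il2rb, Hspa1b was at 3.28. Without the deepest cell of each library Gadd45g was at 0.31, Lamp1 at -0.064 and Il2ra at 0.18. Without the cell with most UMIs of the gene, values were 0.86 for Ccnd1, 0.36 for Jun, 3.03 for Hspa1b, 0.017 for Bcl2l1, 0.26 for Zeb2 and 0.083 for Lag3. Settings of Nkg7 or Il2rb, CD3 UMIs, 1 receptor gene and single cells were added after the data were seen. The cause of these moves was not tested.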
